A study of Rattus norvegicus with 10 samples.

Results

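The genes described here encode tubulins, the building blocks of microtubules, and the kinesin, dynein and dynactin proteins that move cargo along them. They were found by their symbols, which had to begin with Kif and a digit, or with Klc, Tuba, Tubb, Tubg, Dync or Dctn, in upper or lower case. The rule took 67 loci that name 65 genes, of 23824 genes and unnamed loci in all. Of the 65, 20 were tubulins or proteins of the gamma-tubulin complex, 32 were kinesins or kinesin light chains and 13 were subunits of dynein or dynactin. Kif1a, Kif17, Kif21a and Klc2 were not among the 65, so the families are not covered in full.

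The samples were hippocampi of male Sprague-Dawley rats of 200 to 240 g, the weight being given in place of an age. One group of 5 libraries came from rats with a traumatic brain injury (TBI), caused by fluid percussion, and the other 5 from rats that had sham surgery. Both groups took a learning test 1 week after surgery and were then killed, and messenger RNA was sequenced after poly-A selection. The labels do not say outright that each library is a different rat, so p-values here speak only for the spread among the 10 libraries. Whole hippocampal tissue was used, so fewer cells of a type and less RNA per cell cannot be told apart.

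Microtubules are hollow polymers of alpha- and beta-tubulin pairs, and in an axon their plus ends point away from the cell body. Most kinesins walk toward the plus end and carry vesicles, mitochondria and other cargo outward, while cytoplasmic dynein, with its activator dynactin, carries cargo back to the cell body. Axonal microtubules break and transport stalls when a nerve fibre is stretched, which is why these genes are of interest after a head injury. Other members of the same families work in cilia or in the mitotic spindle.

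Levels are in FPKM, fragments per kilobase of transcript scaled to library size, and so can be compared between genes. Of the 65 genes, 52 had a mean of at least 0.5 FPKM over the 10 libraries and were tested. The 13 below that level were Kif11, Kif12, Kif15, Kif18a, Kif18b, Kif20a, Kif20b, Kif23, Kif2b, Kif2c, Tuba3a, Tuba3b and Tubal3. The median of the tested genes' mean levels was 32.7 FPKM, against 8.49 FPKM over all 16194 features tested. Their levels also varied less, with a median coefficient of variation over the 10 libraries of 14.2%, against 17.6% over all features. No comparison with features of a like level was made, so this lower variation may not be particular to these genes. The relative depth of the libraries, read from the spacing of the lowest values, ran from 0.707 in TBI 2 to 1.26 in TBI 1, and the absolute depth is not known.

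None of the 52 genes passed the comparison of TBI with sham at an adjusted p under 0.05 in limma, where 0% of all features passed. At an unadjusted limma p under 0.05 the count was 0 of 52, against 2.91% of all features (1.41% higher and 1.51% lower), and an exact permutation test of each gene gave 1 of 52, against 3.51%. No gene had groups without overlap, against 0.482% of all features. The mean of log2(FPKM + 0.5) was higher after TBI for 21 genes (50.4% of all features) and lower for 31 genes, or 59.6% (49.6% of all features). The median log2 difference, TBI minus sham, was -0.05, against 0.00 for all features, and the differences ran from -0.42 for Kif5a to 0.82 for Kif19. The 95% interval of the difference had a median half-width of 0.29 on the log2 scale. It lay within 1 log2 unit on either side of 0 for 50 of the 52 genes, the exceptions being Kif19 and Klc3. A change of 2-fold in FPKM + 0.5, in either direction, was therefore outside the interval for these 50 genes. For genes of low FPKM, 1 log2 unit on this scale is more than a 2-fold change of FPKM itself. Changes small enough to lie within the interval were not detectable.

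One library stood apart. TBI 1 had the lowest value of the 10 libraries for 29 of the 52 genes, or 55.8%, against 28.4% of all features. It was also lowest for 9 of 9 neuron markers (Rbfox3, Snap25, Syt1, Slc17a7, Camk2a, Thy1, Nefl, Nefm and Nefh), whose summed level was 3037 FPKM there and 4685 to 6004 FPKM in the other 9 libraries. Choroid plexus markers, led by Ttr, summed to 32807 FPKM in TBI 1, to 31774 FPKM in sham 2 and to 51.1 to 18071 FPKM in the other 8. Immature neuron markers summed to 88.5 FPKM in TBI 1 and 27.2 to 40.1 FPKM elsewhere, but only 3 of 5 (Neurod1, Calb2 and Igfbpl1) were highest there, while Dcx and Sox11 lay within their sham ranges. Meninges and matrix markers summed to 578 FPKM in TBI 1 and 38.6 to 449.8 FPKM elsewhere, with 2 of 7 (Dcn and Igf2) highest there. Igf2 alone was at 445 FPKM in TBI 1, while Lum, Col1a1, Col3a1 and Slc6a13 were highest in sham 4. A list of 15 genes known from the pineal gland and photoreceptors, written after their values were seen, was highest in TBI 1 for 15 of 15, with a sum of 2514 FPKM there, 49.6 FPKM in sham 2 and 1.82 to 8.15 FPKM in the other 8. The heat map of the 52 genes shows that library in blue for most genes of the alpha-tubulin, beta-tubulin, kinesin-1, kinesin-2, dynein 1 and dynactin groups. Exceptions in these groups were Tuba1c, the locus named for both Tuba1a and Tuba1b, Tubb6, Klc3 and Dync1i2, which were above their sham means in TBI 1.

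**Figure D1:**
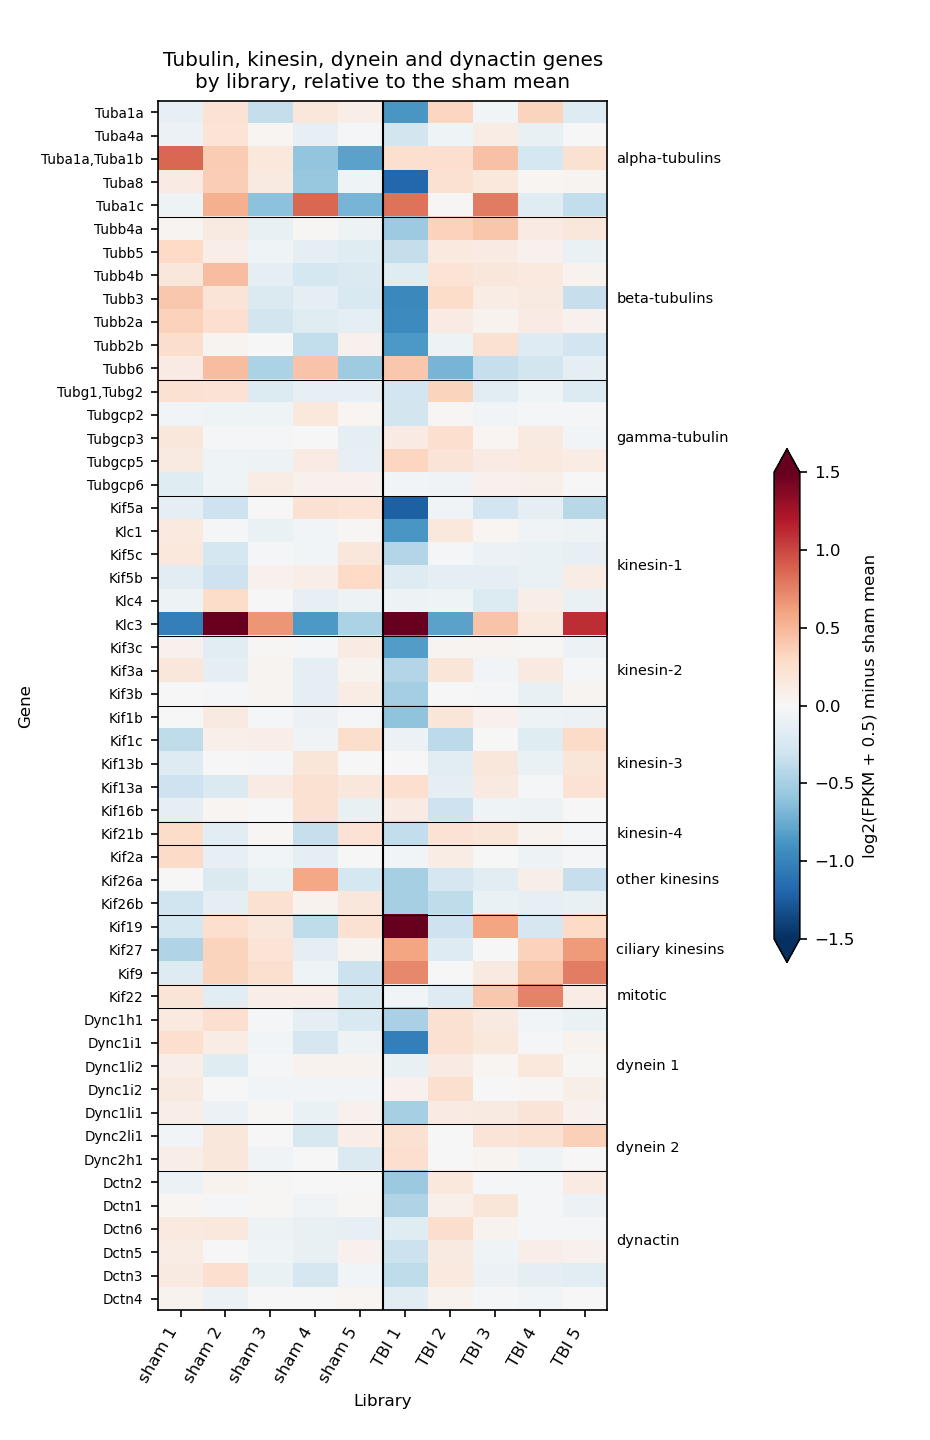
Each of the 52 tested genes (y axis, by group) in the 10 libraries (x axis), coloured by log2(FPKM + 0.5) minus the gene's sham mean, with blue below and red above. TBI 1 had the lowest value for 29 of the 52 genes, while Kif19 and Klc3 were highest there.

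Without TBI 1, 35 of the 52 genes had a higher mean after TBI and 17 a lower one, so 67.3% were higher, against 53.7% of all 15968 features tested. The median log2 difference was then 0.05 for these genes and 0.01 for all features. Of the 52 genes, 15 went from a lower to a higher mean when TBI 1 was left out, and Dync2h1 went the other way. TBI 1 was the lowest library for 29 of them, so leaving it out had to raise the TBI means of those genes. Changes of direction were not counted over all features. None passed adjustment in limma, and 1 of the 52 (1.92%) had an unadjusted limma p under 0.05, against 2.74% of all features. With all 10 libraries and a neuron marker score as a covariate, chosen after seeing the data, 18 genes were lower and 0 passed adjustment. The share of all features that was lower with this covariate was not counted. The plot of the log2 differences shows both fits beside each other.

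**Figure D2:**
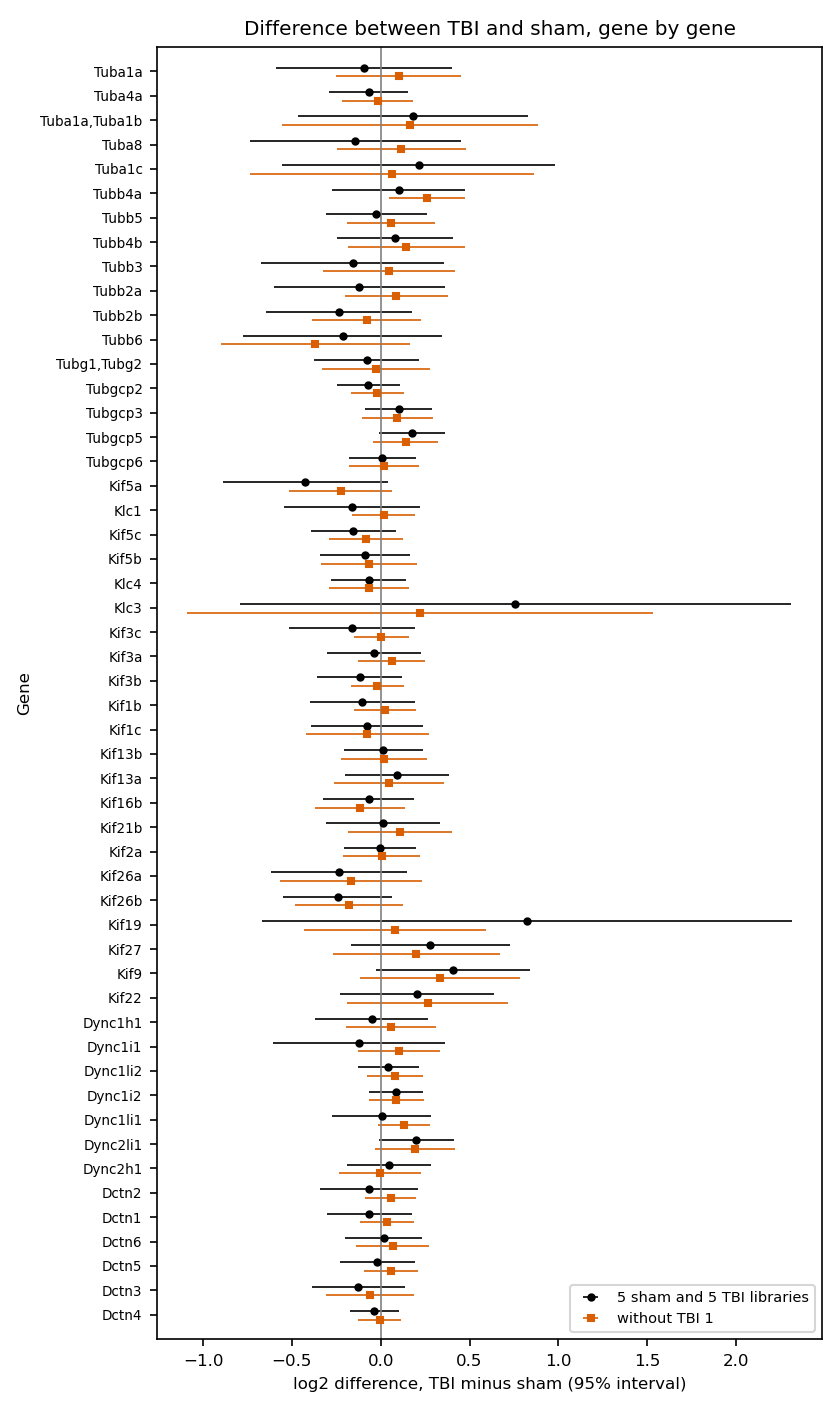
Log2 difference of TBI minus sham (x axis) for each of the 52 genes (y axis) with its 95% interval, from all 10 libraries (black circles) and without TBI 1 (orange squares). All black intervals reach across 0, those of Kif19 and Klc3 are the widest, and among the orange ones only that of Tubb4a does not reach 0. In the fit without TBI 1, 1 of these 52 genes had an unadjusted limma p under 0.05, against 2.74% of all features.

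The alpha-tubulins form one side of the tubulin pair, and Tuba1a is the main form of young neurons. Tuba1a was the most abundant of them, at 533, 669.9, 451, 650.0 and 619.5 FPKM in sham 1 to 5 and 316, 721, 562, 727 and 504.3 FPKM in TBI 1 to 5. TBI 1 was the lowest of all 10, while TBI 2 and TBI 4 were above every sham value. The group values were 585 ± 91.4 FPKM in sham libraries and 566 ± 170.1 FPKM after TBI (SD, n = 5 each). A separate locus named for both Tuba1a and Tuba1b ran from 167 FPKM in sham 5 to 529 FPKM in sham 1, at 319 ± 148 FPKM in sham libraries and 334 ± 55.3 FPKM after TBI (SD, n = 5 each). These genes are near-identical copies, so reads may be split between the loci and each level is uncertain.

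Tuba4a, an alpha-tubulin encoded without the usual C-terminal tyrosine, was at 344, 421, 373, 336 and 362 FPKM in sham 1 to 5 and 303, 351, 396, 338 and 365 FPKM in TBI 1 to 5. Its highest and lowest libraries differed 1.39-fold, the least of the tested alpha-tubulins, and the groups overlapped. Tuba8, a divergent form, was at 37.5 ± 8.48 FPKM in sham libraries and 35.01 ± 10.9 FPKM after TBI (SD, n = 5 each), with 15.9 FPKM in TBI 1 and 37.3 to 43.1 FPKM in the other TBI libraries. Tuba1c was the least abundant tested form, at 4.14, 6.61, 2.699, 8.4 and 2.53 FPKM in sham 1 to 5 and 8.14, 4.46, 7.92, 3.84 and 3.303 FPKM in TBI 1 to 5. High and low libraries of Tuba1c were mixed across the groups. Tuba1a was above Tuba4a in 10 of 10 libraries, and Tuba4a was above the shared locus in 8 of 10. Tuba3a and Tuba3b did not exceed 0.0386 FPKM in any library, and Tubal3 was listed at 0 in all 10.

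Among the beta-tubulins, Tubb4a was the most abundant, a form found in myelinating cells and neurons. It was at 539, 574, 486, 530.4 and 497 FPKM in sham 1 to 5 and 360.2, 668, 698, 569 and 589 FPKM in TBI 1 to 5. TBI 1 was the lowest of all 10 libraries, while TBI 2, TBI 3 and TBI 5 were above every sham value, and TBI 4 lay within the sham range. Over all 10 libraries the log2 difference was 0.10 ± 0.17 (SE; limma adjusted p = 0.983), with 0.039 without TBI 2 and 0.023 without TBI 3. Without TBI 1 it was 0.26, with an interval of 0.05 to 0.47 and an unadjusted limma p of 0.0211 (adjusted p = 0.9998). In that fit 1 of the 52 genes (1.92%) had an unadjusted limma p under 0.05, against 2.74% of all features. Tubb4a in TBI 2 to 5 was at 631 ± 61.8 FPKM (SD, n = 4).

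Tubb5, the broadly expressed beta-tubulin, was at 327, 285, 254, 240.1 and 235 FPKM in sham 1 to 5 and 207, 296, 289, 278 and 248 FPKM in TBI 1 to 5. The groups overlapped over most of their range. Tubb3, the neuronal form used as a neuron marker, was at 273, 237, 178, 188 and 177 FPKM in sham 1 to 5 and 106, 252, 224, 228 and 163 FPKM in TBI 1 to 5. TBI 1 was 50.2% of the sham mean, and the other 9 libraries lay between 163 and 273 FPKM. Tubb2b, which is active in migrating neurons, was at 71.5, 61.05, 59.8, 45.8 and 62.1 FPKM in sham 1 to 5 and 32.5, 56.6, 69.8, 51.9 and 48.8 FPKM in TBI 1 to 5. Here too TBI 1 was lowest and the groups overlapped, with a log2 difference of -0.24 ± 0.19 (SE; limma adjusted p = 0.983), or -0.08 without TBI 1. Tubb2a was at 110.4 ± 21.9 FPKM in sham libraries and 104 ± 26.9 FPKM after TBI (SD, n = 5 each) and Tubb4b at 237 ± 53.9 FPKM in sham libraries and 246 ± 25.4 FPKM after TBI (SD, n = 5 each). Tubb6 was the least abundant, at 4.08 ± 1.45 FPKM in sham libraries and 3.41 ± 1.16 FPKM after TBI (SD, n = 5 each).

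The order of the beta-tubulins was much the same from library to library. Tubb4a was above Tubb5 in 10 of 10, Tubb5 above Tubb4b in 9 of 10, Tubb4b above Tubb3 in 9 of 10, and Tubb3 above Tubb2a and Tubb2a above Tubb2b in 10 of 10 each. Tubb5 and Tubb4b were thus not separated in every library, and neither were Tubb4b and Tubb3. As a share of all beta-tubulin FPKM, Tubb4a made up 37.4% ± 2.94 in sham libraries and 39.8% ± 2.31 after TBI (SD, n = 5 each). The share of Tubb3 was 14.8% ± 1.25 and 13.2% ± 1.98, with 10.9% in TBI 1. How reads shared between similar tubulin genes were counted is not known, so the order and the shares are uncertain to that extent. The plot of tubulin levels shows the order and the position of TBI 1.

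**Figure D3:**
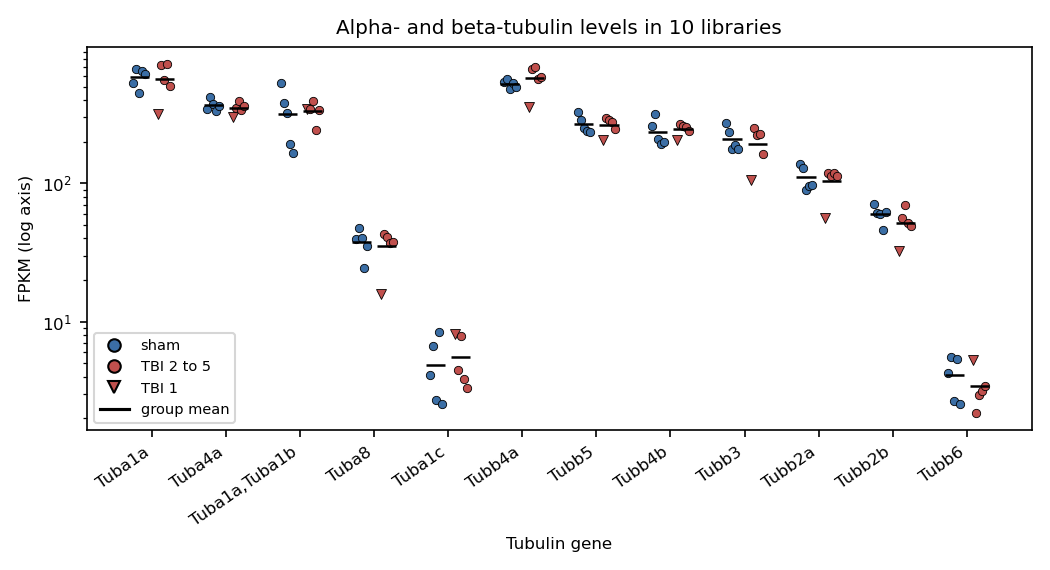
FPKM (log axis) of each tested alpha- and beta-tubulin in 10 libraries, with sham in blue, TBI in red, TBI 1 as a triangle and group means as black lines. Tuba1a and Tubb4a have the highest means of their families, and TBI 1 is the lowest point for Tuba1a, Tuba4a, Tuba8, Tubb4a, Tubb5, Tubb3, Tubb2a and Tubb2b.

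Gamma-tubulin and its partner proteins form the ring from which new microtubules grow. The locus named for both Tubg1 and Tubg2, near-identical copies whose reads may be mixed, was at 23.2, 23.1, 17.1, 18.05 and 18.1 FPKM in sham 1 to 5 and 16.1, 24.9, 17.4, 18.9 and 17.1 FPKM in TBI 1 to 5. Tubgcp2, a core protein of the small complex, was at 14.4, 14.1, 14.2, 16.6 and 15.1 FPKM in sham 1 to 5 and 12.1, 15, 14.4, 14.7 and 14.5 FPKM in TBI 1 to 5. For both, TBI 1 was lowest and the groups overlapped.

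Tubgcp5, a protein of the larger ring, was at 8.14, 7.005, 6.93, 8.02 and 6.699 FPKM in sham 1 to 5 and 9.296, 8.42, 8.03, 8.14 and 7.94 FPKM in TBI 1 to 5. All 5 TBI values were above the sham mean, but 2 sham libraries lay among them. The log2 difference was 0.18 ± 0.08 (SE; limma adjusted p = 0.983), and it was the gene with an exact two-sided permutation p under 0.05 before adjustment, at 0.0476. Tubgcp3 was at 8.47 ± 0.706 FPKM in sham libraries and 9.12 ± 0.754 FPKM after TBI (SD, n = 5 each) and Tubgcp6 at 5.26 ± 0.476 FPKM in sham libraries and 5.29 ± 0.2397 FPKM after TBI (SD, n = 5 each).

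Kinesin-1 is the main motor of outward transport in axons, built from heavy and light chains. Kif5a, the neuronal heavy chain, was at 329, 295, 367, 429 and 422 FPKM in sham 1 to 5 and 156, 352, 299.5, 329 and 273 FPKM in TBI 1 to 5. The sham values ran from 295 to 429 FPKM, and TBI 1, at 42.4% of the sham mean, and TBI 5 lay below them while TBI 2, TBI 3 and TBI 4 lay within. The log2 difference was -0.42 with an interval of -0.89 to 0.04 (limma adjusted p = 0.983, exact permutation p = 0.0714), and -0.22 without TBI 1. This was the lowest difference of the 52 genes.

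Kif5c, another heavy chain of neurons, was at 158, 118, 139.8, 138 and 159.9 FPKM in sham 1 to 5 and 105, 139, 134, 132 and 129.9 FPKM in TBI 1 to 5. All 10 values carry a failed status in the deposited table, so they are uncertain. TBI 1 was again lowest, and the log2 difference was -0.15 ± 0.11 (SE; limma adjusted p = 0.983), or -0.08 without TBI 1. Kif5b, the heavy chain of most tissues, was at 68.1 ± 11.2 FPKM in sham libraries and 63.5 ± 5.53 FPKM after TBI (SD, n = 5 each), with a failed status in sham 1. Kif5a was above Kif5c and Kif5c above Kif5b in 10 of 10 libraries. Kif5a made up 63.5% ± 2.46 of the heavy chain FPKM in sham libraries and 58.7% ± 5.998 after TBI (SD, n = 5 each), from 48.8% in TBI 1 to 63.7% in TBI 2.

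Of the light chains found by the rule, which bind cargo, Klc1 was by far the most abundant, at 325, 289, 274, 285 and 297 FPKM in sham 1 to 5 and 160.0, 329, 300.2, 284 and 278 FPKM in TBI 1 to 5. Its values were close together in 9 libraries, from 274 to 329 FPKM, and TBI 1 was 54.4% of the sham mean. Klc4 was at 10.2 ± 1.25 FPKM in sham libraries and 9.66 ± 0.795 FPKM after TBI (SD, n = 5 each). Klc3, a light chain known from developing sperm, was at 0.182, 3.998, 1.696, 0.267 and 0.498 FPKM in sham 1 to 5 and 9.87, 0.299, 1.37, 1.04 and 2.48 FPKM in TBI 1 to 5. Its highest library was 54.4-fold above its lowest, the widest range of the 52 genes, and TBI 1 and sham 2 were the highest of their groups. The log2 difference was 0.76 with an interval of -0.79 to 2.31 (limma adjusted p = 0.983), 0.22 without TBI 1, 1.18 without sham 2, 1.15 without TBI 2, 0.50 without sham 1, -0.04 with libraries 2 to 5 of each group, and -0.08 with a choroid plexus score as a covariate. Kl, a choroid plexus marker, was also highest in these libraries, at 72.8 FPKM in TBI 1 and 44.0 FPKM in sham 2 of their groups. The part of choroid plexus tissue in the Klc3 values was not tested beyond that covariate.

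Kinesin-2 carries vesicles in neurons and also moves cargo along cilia. Kif3a, which pairs with either of its partners, was at 39.8, 31.97, 36.4, 32.2 and 36.7 FPKM in sham 1 to 5 and 25.8, 40.1, 34.3, 38.7 and 34.7 FPKM in TBI 1 to 5. Kif3c, a partner rich in neurons, was at 43.7, 37.4, 42.5, 40.9 and 45.5 FPKM in sham 1 to 5 and 23.3, 43.3, 43.1, 42.5 and 39.3 FPKM in TBI 1 to 5. Kif3b, the partner found in most cells, was at 19.6 ± 1.27 FPKM in sham libraries and 18.1 ± 2.67 FPKM after TBI (SD, n = 5 each). TBI 1 was the lowest library for Kif3a, Kif3b and Kif3c, at 72.8%, 69.2% and 55.5% of their sham means. The other TBI libraries were close to sham, with Kif3c at 42.04 ± 1.86 FPKM in TBI 2 to 5 (SD, n = 4) and 42.00 FPKM as the sham mean. Kif3c was above Kif3a in 9 of 10 libraries and Kif3a above Kif3b in 10 of 10.

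Kinesin-3 motors carry synaptic vesicle precursors, mitochondria and endosomes. Kif1b, which stands on 2 loci that were summed, was at 176, 194, 174, 167 and 176 FPKM in sham 1 to 5 and 116, 202, 185, 169 and 167 FPKM in TBI 1 to 5. TBI 1 was 65.6% of the sham mean and the other 9 libraries lay between 167 and 202 FPKM. One locus ran from 28.5 FPKM in TBI 1 to 119 FPKM in sham 2 and the other from 75.4 FPKM in sham 2 to 120.4 FPKM in sham 5, so the split between them differed from library to library. Both carry a failed status in TBI 2. Kif1c, a carrier of dense-core vesicles, was at 40.5, 55.5, 56.6, 50.8 and 63.6 FPKM in sham 1 to 5 and 49.8, 40.04, 52.6, 46.5 and 64.3 FPKM in TBI 1 to 5. Its groups overlapped over most of their range, and TBI 1 was not the lowest.

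The other members of kinesin-3 were less abundant. Kif13b was at 7.09 ± 0.7101 FPKM in sham libraries and 7.18 ± 0.816 FPKM after TBI (SD, n = 5 each) and Kif13a at 5.699 ± 1.01 FPKM in sham libraries and 6.06 ± 0.754 FPKM after TBI (SD, n = 5 each). Kif16b, a motor of early endosomes, was at 2.596 ± 0.319 FPKM in sham libraries and 2.45 ± 0.316 FPKM after TBI (SD, n = 5 each). The log2 differences of the 5 members ran from -0.10 for Kif1b to 0.09 for Kif13a, and TBI 1 was lowest for Kif1b alone and highest for Kif13a.

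Kif21b, a kinesin of dendrites, was at 16.2, 11.9, 13.5, 10.3 and 15.6 FPKM in sham 1 to 5 and 10.2, 15.5, 15.1, 13.8 and 13.2 FPKM in TBI 1 to 5. The lowest values were those of TBI 1 and sham 4. Kif2a, which takes microtubules apart at their ends, was at 15.8, 11.7, 12.5, 11.6 and 12.8 FPKM in sham 1 to 5 and 12.4, 13.9, 12.9, 12.1 and 12.6 FPKM in TBI 1 to 5. These values were close together apart from the highest, sham 1, and the log2 difference was -0.00.

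Kif26a and Kif26b are unusual kinesins that bind microtubules without walking. Kif26a was at 3.75, 3.18, 3.49, 5.89 and 3.05 FPKM in sham 1 to 5 and 2.53, 3.08, 3.32, 4.05 and 2.86 FPKM in TBI 1 to 5. Sham 4 was above all others and TBI 1 lowest, with a log2 difference of -0.23 ± 0.17 (SE; limma adjusted p = 0.983), which was -0.088 without sham 4. Kif26b was at 1.81, 2.08, 2.83, 2.46 and 2.71 FPKM in sham 1 to 5 and 1.51, 1.69, 2.17, 2.13 and 2.13 FPKM in TBI 1 to 5. All 5 TBI values were below the sham mean, but sham 1 and sham 2 lay among them, and the log2 difference was -0.24 ± 0.14 (SE; limma adjusted p = 0.983).

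The plot of summed levels sets some of these groups beside the neuron markers. In TBI 1 the neuron marker sum was 56.1% of its sham mean, and the sums were 56.4% for kinesin-1, 64.6% for kinesin-2, 68.6% for beta-tubulins, 74.3% for kinesin-3, 74.4% for dynein 1, 75.3% for alpha-tubulins and 75.9% for dynactin. In TBI 2 to 5 the sums of these drawn groups lay between 86.6% of the sham mean, for kinesin-1, and 117% for beta-tubulins. The neuron markers lay between 89.1% and 111% there. Groups left out of the plot were, in TBI 1, at 75.7% for Kif21b, 85.9% for other kinesins and 92.9% for gamma-tubulins and their complex. Dynein 2 was at 118% in TBI 1, mitotic kinesins at 167% and ciliary kinesins at 675%. Marker sums of other tissues in TBI 1 were 74.3% of the sham mean for oligodendrocytes and 76.0% for astrocytes, and 276% for meninges and matrix, 179% for ependyma and 391% for choroid plexus. The meninges and matrix sum in TBI 1 was mostly Igf2, at 445 of 578 FPKM. Of the oligodendrocyte markers, 6 of 7 were below their sham mean in TBI 1 and 3 were the lowest of all libraries, and of the astrocyte markers 4 of 5 and 1. The part of these cell types in the levels of TBI 1 was not tested beyond the neuron covariate given above.

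**Figure D4:**
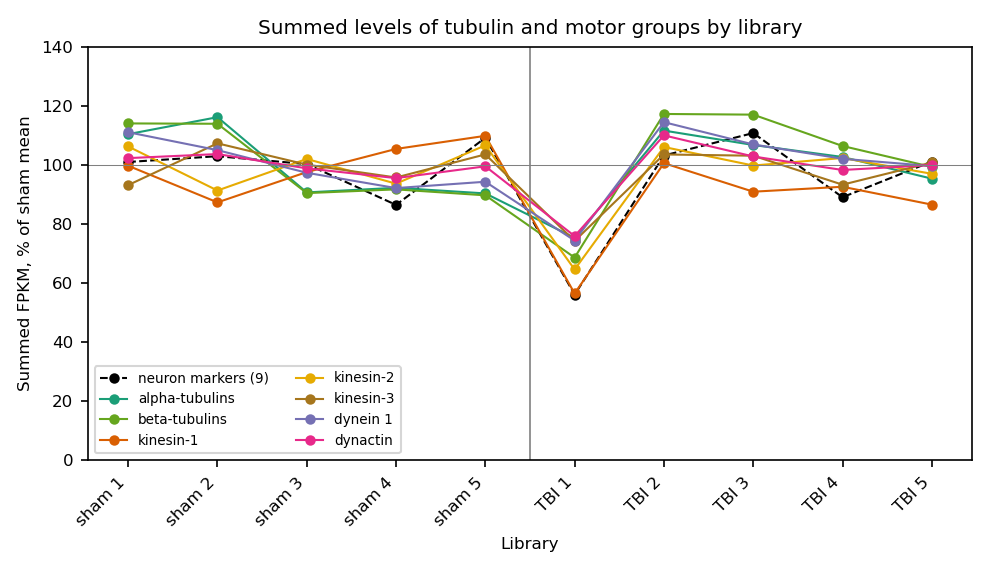
Summed FPKM of 7 groups of tubulin and motor genes and of 9 neuron markers (dashed) in each library, as a percent of the sham mean. The 8 lines drop together in TBI 1, to between 56.1% and 75.9%. Of the groups not drawn, dynein 2 and the mitotic and ciliary kinesins were above their sham means in TBI 1, and the rest were below.

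Cytoplasmic dynein 1 carries cargo back along the axon. Its motor subunit Dync1h1 was at 113, 121, 99.1, 91.3 and 86.8 FPKM in sham 1 to 5 and 72.04, 119, 112, 98.7 and 94.5 FPKM in TBI 1 to 5. Dync1i1, the intermediate chain of neurons, was at 87.2, 79.3, 71.2, 61.5 and 69.3 FPKM in sham 1 to 5 and 35.6, 85.96, 81.8, 72.2 and 75.7 FPKM in TBI 1 to 5. TBI 1 was lowest for both, at 70.5% and 48.3% of the sham means, and the other libraries of the groups overlapped.

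Dync1i2, the intermediate chain found in most cells, did not share that pattern. It was at 48.1, 43.6, 42.5, 42.6 and 42.8 FPKM in sham 1 to 5 and 46.1, 51.8, 43.9, 44.6 and 46.6 FPKM in TBI 1 to 5. TBI 1, at 46.1 FPKM, was in the middle of the TBI range, and all 5 TBI values were above the sham mean, with sham 1 among them. The log2 difference was 0.08 ± 0.07 (SE; limma adjusted p = 0.983), which was 0.046 without TBI 2. The light intermediate chains, which bind cargo adaptors, were at 25.95 ± 1.68 FPKM in sham libraries and 26.4 ± 4.66 FPKM after TBI (SD, n = 5 each) for Dync1li1, and at 60.5 ± 4.46 FPKM in sham libraries and 62.4 ± 4.53 FPKM after TBI (SD, n = 5 each) for Dync1li2.

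Dynactin links dynein to cargo and its summed level lay between 95.6% and 110% of the sham mean in the 9 libraries other than TBI 1. Dctn1, the large subunit that grips the microtubule, was at 127, 123, 126, 120.2 and 126 FPKM in sham 1 to 5 and 91.1, 131, 141, 122 and 117 FPKM in TBI 1 to 5. Dctn2, a subunit of the shoulder, was at 118, 130.4, 127, 125 and 126 FPKM in sham 1 to 5 and 85.3, 139, 123, 123 and 136 FPKM in TBI 1 to 5. TBI 1 was lowest for both, at 73.1% and 68.1% of the sham means. All 6 dynactin genes had their lowest value in TBI 1. Dctn6 was at 69.6 ± 7.03 FPKM in sham libraries and 70.5 ± 8.12 FPKM after TBI (SD, n = 5 each), and Dctn5 at 44.2 ± 2.78 FPKM in sham libraries and 43.8 ± 5.37 FPKM after TBI (SD, n = 5 each). Both belong to its pointed end. Dctn3 was at 31.6 ± 4.42 FPKM in sham libraries and 28.9 ± 3.898 FPKM after TBI (SD, n = 5 each), and Dctn4 at 27.1 ± 0.9698 FPKM in sham libraries and 26.4 ± 1.42 FPKM after TBI (SD, n = 5 each). Of these, Dctn4 had the narrowest range of all 52 genes, 1.16-fold, and its log2 difference was -0.04.

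Dynein 2 works in cilia, where it returns material from the tip. Its light intermediate chain Dync2li1 was at 13.7, 15.9, 14.04, 11.8 and 15.1 FPKM in sham 1 to 5 and 16.5, 13.98, 16.2, 16.5 and 18.04 FPKM in TBI 1 to 5. TBI 5 was highest and sham 4 lowest, TBI 1, TBI 3 and TBI 4 also lay above every sham value, and TBI 2 lay within the sham range. The log2 difference was 0.20 ± 0.10 (SE; limma adjusted p = 0.983, exact permutation p = 0.0556), and 0.19 without TBI 1. The motor subunit Dync2h1 was at 3.37, 3.58, 2.98, 3.14 and 2.61 FPKM in sham 1 to 5 and 3.82, 3.105, 3.23, 2.96 and 3.15 FPKM in TBI 1 to 5. Its TBI values lay among the sham values apart from TBI 1, and the log2 difference was 0.05.

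Kif9, Kif27 and Kif19 are kinesins of motile cilia, the beating hairs of ependymal and choroid plexus cells. The promoters of Kif9, Kif27, Dync2li1 and Klc3 are shown because Kif9, Kif27 and Dync2li1 were highest in TBI 5, where the summed markers of motile cilia were also highest, and Klc3 had the widest range of the 52 genes. The sequences are from RefSeq on the GRCr8 build of the rat genome, from 250 bases before to 50 bases after the start, 5′ to 3′ on the strand of the gene. Capitals mark GTTGCC or its reverse complement GGCAAC, the letters of a site bound by RFX factors, which act on cilium genes.
Kif9, chr8:119337849-119338148, plus strand: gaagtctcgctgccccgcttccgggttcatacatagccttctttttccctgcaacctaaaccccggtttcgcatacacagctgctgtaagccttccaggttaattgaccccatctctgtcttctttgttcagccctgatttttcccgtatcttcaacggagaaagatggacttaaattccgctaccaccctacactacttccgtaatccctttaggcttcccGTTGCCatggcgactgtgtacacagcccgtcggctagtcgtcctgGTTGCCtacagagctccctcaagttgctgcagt
Kif27, chr17:6304739-6305038, plus strand: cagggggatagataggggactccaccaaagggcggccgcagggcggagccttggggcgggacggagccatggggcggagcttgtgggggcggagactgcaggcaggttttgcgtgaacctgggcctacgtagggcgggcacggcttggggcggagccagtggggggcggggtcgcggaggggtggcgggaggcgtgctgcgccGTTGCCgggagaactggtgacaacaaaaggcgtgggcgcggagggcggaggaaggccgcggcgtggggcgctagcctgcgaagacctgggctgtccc
Dync2li1, chr6:15778117-15778416, minus strand: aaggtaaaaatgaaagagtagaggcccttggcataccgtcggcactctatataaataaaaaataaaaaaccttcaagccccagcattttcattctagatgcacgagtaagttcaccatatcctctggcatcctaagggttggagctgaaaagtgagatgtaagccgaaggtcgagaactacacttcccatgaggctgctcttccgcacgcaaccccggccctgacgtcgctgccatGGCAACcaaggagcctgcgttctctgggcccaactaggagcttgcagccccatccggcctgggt
Klc3, chr1:88183373-88183672, minus strand: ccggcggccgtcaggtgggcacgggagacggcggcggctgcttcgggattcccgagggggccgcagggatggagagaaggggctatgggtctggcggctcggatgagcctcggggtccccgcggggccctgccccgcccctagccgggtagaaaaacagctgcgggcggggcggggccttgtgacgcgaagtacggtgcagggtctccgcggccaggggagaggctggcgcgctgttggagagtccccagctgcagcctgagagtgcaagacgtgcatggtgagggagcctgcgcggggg

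Kif9 held the letters 28 bases before and 17 bases after its start, Kif27 47 bases before and Dync2li1 14 bases before, and Klc3 did not hold them in this window. GTTGCC on either strand stood in 10 of the 55 genes with a promoter sequence (18.2%) and in 12.2% of 33469 promoters. The first share counts genes with a match in any of their promoters and the second counts single promoters, so they are not a like comparison. The 10 also included Dync1i2, Kif13a, Kif18a, Kif23, Kif3a, Kif3c and Tuba8.  A match is only a description of the letters.

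Kif9, a motor of the ciliary axoneme, was at 0.736, 1.28, 1.17, 0.844 and 0.626 FPKM in sham 1 to 5 and 1.81, 0.917, 1.05, 1.37 and 1.91 FPKM in TBI 1 to 5. TBI 5 and TBI 1 were the highest of the 10, and the groups overlapped, with a log2 difference of 0.41 and an interval of -0.02 to 0.84 (limma adjusted p = 0.983). Kif27 was at 1.101, 2.26, 2.04, 1.496 and 1.78 FPKM in sham 1 to 5 and 2.803, 1.42, 1.71, 2.296 and 2.91 FPKM in TBI 1 to 5. TBI 5 and TBI 1 were again the highest and sham 1 the lowest, with a log2 difference of 0.28 ± 0.20 (SE; limma adjusted p = 0.983). Without TBI 1 the differences were 0.33 for Kif9 and 0.20 for Kif27, and without sham 1 that of Kif27 was 0.16.

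Kif19, which trims microtubules at the tips of cilia, was at 0.748, 1.28, 1.18, 0.6505 and 1.25 FPKM in sham 1 to 5 and 20.3, 0.708, 1.75, 0.755 and 1.35 FPKM in TBI 1 to 5. TBI 1 was far above the other 9 libraries, which lay between 0.6505 and 1.75 FPKM. The log2 difference of 0.82, with an interval of -0.67 to 2.31 (limma adjusted p = 0.983), became 0.08 without TBI 1. The pineal and photoreceptor gene Tph1 was at 1030.5 FPKM in TBI 1 and 0.0178 to 17.97 FPKM in the others. The part of pineal tissue in the Kif19 value of TBI 1 was not tested.

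Markers of ependyma and motile cilia varied between the same libraries. Their sum over 8 genes ran from 14.9 FPKM in sham 4 to 61.4 FPKM in sham 2, and from 28.2 FPKM in TBI 2 to 72.5 FPKM in TBI 5, with 68.0 FPKM in TBI 1. Foxj1, a driver of motile cilia, ran from 1.61 FPKM in sham 4 to 24.2 FPKM in TBI 1, and no marker of the list was at 0. Of the 8 markers, 4 (Spag6, Tekt1, Tmem212 and Ccdc153) were highest in TBI 5, and 7 were lowest in sham 4. With a choroid plexus score as a covariate, the log2 differences were 0.22 for Kif9, 0.06 for Kif27, 0.12 for Dync2li1 and 0.39 for Kif19. No covariate for ependyma was run. The plot of cilium-related motors shows the libraries side by side.

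**Figure D5:**
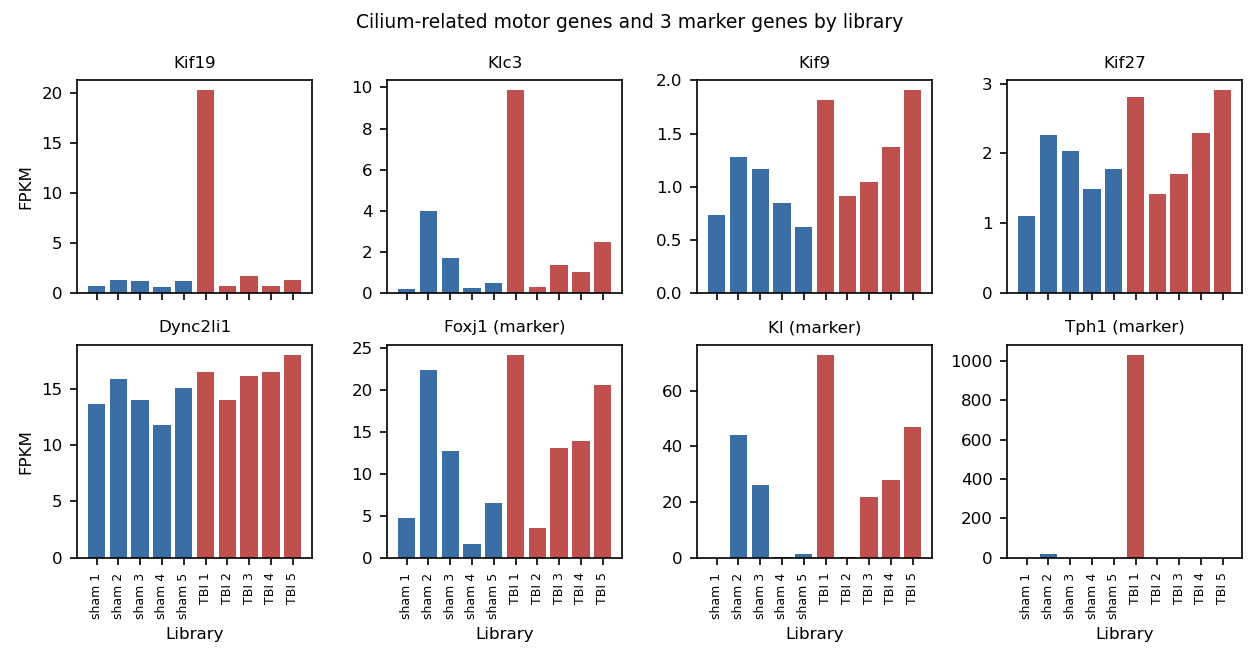
FPKM (bars, from 0) in sham (blue) and TBI (red) libraries of Kif19, Klc3, Kif9, Kif27 and Dync2li1 and of the markers Foxj1 (motile cilia), Kl (choroid plexus) and Tph1 (pineal gland). Kif19 and Tph1 stand out in TBI 1 alone, whereas Kif9, Kif27 and Dync2li1 are highest in TBI 5.

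Mitotic kinesins drive chromosomes and the spindle of dividing cells, and they were near the lower limit of the data. Kif22, a motor of chromosome arms, was the tested one, at 0.606, 0.357, 0.531, 0.535 and 0.325 FPKM in sham 1 to 5 and 0.4404, 0.341, 0.779, 1.11 and 0.541 FPKM in TBI 1 to 5. TBI 4 and TBI 3 were the highest, and the groups overlapped. Kif11, the motor that separates the spindle poles, ran from 0.107 to 0.629 FPKM, and Kif2c, which takes apart microtubules at the kinetochore, from 0.0210 to 0.533 FPKM, both with the highest value in TBI 1. Kif15, Kif18a, Kif18b, Kif20a, Kif20b and Kif23 did not exceed 0.538 FPKM in any library. Kif12 and Kif2b were listed at 0 in all 10.

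Other microtubule genes were followed in a list of 97 genes, of which 80 were found and 75 tested. None passed adjustment in limma, 0 had an unadjusted limma p under 0.05 (2.91% of all features), and 1, Trak1, had an exact permutation p under 0.05 (3.51%). The mean was higher after TBI for 24 genes and lower for 51, or 68% (49.6% of all features), with a median log2 difference of -0.06. TBI 1 was the lowest library for 45 of the 75, or 60% (28.4% of all features). Without TBI 1, 34 of the 75 were lower, so most then had a higher mean, as did 53.7% of all features.

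Trak1, which ties mitochondria to kinesin-1, was at 31.9, 35.3, 33.7, 32.6 and 36.02 FPKM in sham 1 to 5 and 23.5, 31.2, 34.3, 30.2 and 28.4 FPKM in TBI 1 to 5, with a log2 difference of -0.21 (limma adjusted p = 0.983, exact permutation p = 0.0397). TBI 1 was lowest and TBI 3 lay within the sham range. Dclk1, a microtubule-binding kinase, was at 97.7 ± 14.1 FPKM in sham libraries and 81.4 ± 13.8 FPKM after TBI (SD, n = 5 each), and the minus-end kinesin KIFC2 was at 126 ± 11.4 FPKM in sham libraries and 106 ± 24.7 FPKM after TBI (SD, n = 5 each). Of those with a higher mean, Agbl5, an enzyme that trims glutamates from tubulin, was at 2.47 ± 0.391 FPKM in sham libraries and 3.11 ± 0.617 FPKM after TBI (SD, n = 5 each), and Dcx, a marker of young neurons, was at 2.88 ± 0.937 FPKM in sham libraries and 3.43 ± 0.389 FPKM after TBI (SD, n = 5 each). Dynlrb2, a dynein light chain of cilia, ran from 0.614 FPKM in sham 4 to 15.8 FPKM in TBI 5, as the motile cilia markers did. The most abundant genes of the list were Dynll1, the dynein light chain shared by many complexes, at 571 ± 59.7 FPKM in sham libraries and 546 ± 120.3 FPKM after TBI (SD, n = 5 each), and the stathmins Stmn3 and Stmn2, which bind free tubulin. Stmn3 was at 515 ± 84.3 FPKM in sham libraries and 473 ± 108 FPKM after TBI (SD, n = 5 each) and Stmn2 at 254 ± 35.9 FPKM in sham libraries and 246 ± 56.9 FPKM after TBI (SD, n = 5 each).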

How the data were processed

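FPKM values of 25269 loci in 10 hippocampal libraries were deposited by the authors, each with a word for its status. The submitters' processing notes name Cufflinks, Cuffdiff, TopHat, TopHat2, Bowtie and Bowtie2 and the rn5 build, without roles or versions. Whether strand was used, and which annotation, is not given in the sources used here. Columns had 75th percentiles of 13.1 to 13.5 FPKM, as scaled columns would be, and 81 loci had a status other than OK in some library. No columns were identical, and Spearman correlations between libraries ran from 0.940 to 0.984.

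Loci sharing a symbol were summed per library, and 7177 unnamed loci were kept. Features with a mean of at least 0.5 FPKM were tested with limma 3.58.1 in R 4.3.3 (a linear model with moderated variances that follow the mean, two-sided) after taking log2(FPKM + 0.5), which understates changes of low genes. P-values were adjusted by Benjamini-Hochberg over all 16194 features, with a threshold of 0.05. Single genes were also compared by exact permutation over 252 assignments (two-sided), whose smallest possible p is 0.00794. The procedure was tested on simulated data. Groups came from the treatment labels. The genes and lists were chosen with earlier results of these data known. Values in every library are given for the 2 most abundant genes and the most variable gene of each role and the 5 smallest p-values in each direction. From the other microtubule genes, the 3 smallest p-values in each direction and the 3 most abundant are named, and other tested genes have group values. Alternatives covered pseudocount, filter, scaling, variance model, covariates, a replicate block and each library left out.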

Additional observations from a re-analysis of the deposited data

Results flagged for a closer look

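In each group of 5 libraries, the gap between the highest or lowest value and its nearest neighbour was compared with the range of the group, for the 52 tested genes. The gap exceeded 0.71 of the range (Dixon's 95% critical value) in 14 of 104 groups, where chance alone gives about 1 in 20, or 5.2. The same count over all features was not made, so it is not known whether 14 is particular to these genes. TBI 1 was the lowest library for 28.4% of all features and the highest for 22.1%. Of the 14 groups, 9 were due to TBI 1. It was low for Dync1i1 (35.6 FPKM), Dync1li1 (18.2 FPKM), Kif3c (23.3 FPKM), Kif5c (105 FPKM), Tuba8 (15.9 FPKM), Tubb2a (55.8 FPKM) and Tubgcp2 (12.1 FPKM). It was high for Kif19 (20.3 FPKM) and Klc3 (9.87 FPKM). In TBI 5, Kif5b was high at 73.1 FPKM, against 58.9 to 62.7 FPKM in the other TBI libraries. Among sham libraries, sham 1 was high for Dync1i2 (48.1 FPKM) and Kif2a (15.8 FPKM), sham 2 for Klc4 (12.4 FPKM) and sham 4 for Kif26a (5.89 FPKM). Genes of one library share its tissue and depth, so these are not independent.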

How the results depend on the processing

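With 27 alternatives to the main analysis, 1 of them chosen after seeing the data, none of the 52 genes and none of the other microtubule genes passed adjustment. Among all features, leaving out 1 library gave 0 to 2 calls, the 2 without sham 4, and the other alternatives gave 0. The number of genes with a lower mean after TBI, 31 of 52, was 17 to 35 when 1 library was left out, with the lowest count without TBI 1. It was 18 with libraries 2 to 5, 18 with the neuron score as a covariate and 21 with array weights. Of the 75 other microtubule genes, 51 were lower, 34 to 55 when 1 library was left out, 34 with libraries 2 to 5 and 38 with the neuron score. Shares of all features with a lower mean were not counted for libraries 2 to 5, the neuron score or array weights. The number of the 52 genes at an unadjusted p under 0.05 ran from 0 to 5, the 5 with array weights. The share of all features at that threshold was not counted with array weights, so the 5 have no background beside them. Of the 52 genes, 28 changed sign in at least 1 alternative, which was not counted over all features. The smallest adjusted p of any of the 52 genes in any alternative was 0.592. The log2 difference of Klc3 was -0.078 with the choroid plexus score and -0.035 with libraries 2 to 5, and the cause was not tested. With the replicate number as a replicate block, 0 of the 52 genes passed and 31 were lower. Deviations of same-numbered libraries correlated at -0.10, -0.38, 0.04, -0.10 and 0.31, and no TBI library matched its own number best. These correlations gave no sign of pairing by number, but they cannot exclude it. The filter on low values left 8 of the 9 mitotic kinesins untested.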
